A study of Mus musculus with 17 samples.

Results

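The organic anion transporting polypeptides, encoded by the Slco genes, were measured as read counts in 17 RNA samples of mouse kidney cortex. The members were 8 genes of the count table, found by their gene names among 48795 genes: Slco1a1, Slco1a4, Slco1a6, Slco2a1, Slco2b1, Slco3a1, Slco4a1 and Slco4c1. Their identifiers, in the same order, were ENSMUSG00000041698, ENSMUSG00000030237, ENSMUSG00000079262, ENSMUSG00000032548, ENSMUSG00000030737, ENSMUSG00000025790, ENSMUSG00000038963 and ENSMUSG00000040693. On GRCm38 they lay at chr6:141907282-141946962 (Slco1a1, - strand), chr6:141805440-141856199 (Slco1a4, - strand), chr6:142085761-142208521 (Slco1a6, - strand), chr9:102988712-103096002 (Slco2a1, + strand), chr7:99657804-99711340 (Slco2b1, - strand), chr7:74275419-74554780 (Slco3a1, - strand), chr2:180456245-180474867 (Slco4a1, + strand) and chr1:96816270-96872171 (Slco4c1, - strand), and all were annotated as protein-coding. The WT group held 5 samples labelled wild type. The GCERAd group held 5 samples labelled ATF4 KO, from Ggt/CreER TG/TG, ATF4 fl/fl mice that had received tamoxifen at 6 weeks of age on 2 days. In this line a part of the Ggt1 promoter drives an inducible Cre in proximal tubules, so other cell types of the cortex still carry Atf4, the gene of a stress-response transcription factor. The TRACK group held 3 samples of a transgenic kidney cancer model, in which a promoter active in proximal tubules drives an always active form of the hypoxia factor HIF1A, and the GCERAdT group held 4 samples labelled TRACK-ATF4 KO. The WT and GCERAd mice were fasted for 16 h in the study's protocol, and no tamoxifen is stated for the WT samples. Age, tamoxifen and fasting of the TRACK and GCERAdT mice are not given in the sources used here.

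These transporters sit in the plasma membrane of tubule, liver and barrier cells and carry bulky amphipathic anions such as bile acids, conjugated steroids, prostaglandins, thyroid hormones and many drugs. In the kidney the proximal tubule uses them together with Slc22 carriers and ABC exporters to move organic anions between blood and urine. Several mouse family members are known for levels that differ between males and females, Slco1a1 of the kidney above all.

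The family is recognised by a short signature rich in tryptophan next to a membrane helix, and the stretch of coding sequence around it shows which members can be told apart by single reads. Each stretch below is 51 bases long, the length of 1 read end in the stated protocol. It is written 5′ to 3′ in coding direction from the GENCODE M21 transcripts on GRCm38, and has the tryptophan codons of the signature in capitals. The stretch of Slco1a1 lay at chr6:141925680-141925730 in exon 7, that of Slco1a4 at chr6:141825130-141825180 in exon 10 and that of Slco1a6 at chr6:142109458-142109508 in exon 8, all on the - strand, and their letters were identical. The stretches of Slco2a1 (chr9:103070248-103070298, + strand, exon 6), Slco2b1 (chr7:99682815-99682865, - strand, exon 7), Slco3a1 (chr7:74346841-74346891, - strand, exon 4), Slco4a1 (chr2:180467074-180467124, + strand, exon 4) and Slco4c1 (chr1:96841185-96841235, - strand, exon 5) differed from it and from each other at 12 to 22 of the 51 positions.
Slco1a1, Slco1a4 and Slco1a6: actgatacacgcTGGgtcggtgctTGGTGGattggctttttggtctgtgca
Slco2a1: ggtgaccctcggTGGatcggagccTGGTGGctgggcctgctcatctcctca
Slco2b1: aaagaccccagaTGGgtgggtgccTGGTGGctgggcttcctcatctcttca
Slco3a1: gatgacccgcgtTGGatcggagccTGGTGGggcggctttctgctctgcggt
Slco4a1: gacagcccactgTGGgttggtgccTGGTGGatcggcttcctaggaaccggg
Slco4c1: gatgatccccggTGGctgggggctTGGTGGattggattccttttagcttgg

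Over the whole coding sequence Slco1a1 was 86.7% identical to Slco1a4 and 83.9% to Slco1a6, and the latter pair 85.0% identical, while all other pairs of members lay between 55.3% and 63.8%. Of the 51-base windows of the exons, 1.58% in Slco1a1, 1.53% in Slco1a4 and 6.27% in Slco1a6 also occurred in another gene of the Slco1a cluster or its pseudogenes, and the authors' treatment of reads with several matches is not given in the sources used here. Reads of Slco1a6 were not counted to Slco1a1 in WT 1 to 4, since these samples held 16029 to 20559 counts of Slco1a6 and 0 of Slco1a1. Antisense genes that overlap exons of Slco2b1 had at most 10 counts in any sample.

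Totals on genes lay between 53688512 and 71364561 counts per sample, and a count of 0 allows for a true level of up to 3 counts in that library, as far as counting error goes. All 5 WT samples had Xist counts (8296 to 25334) and at most 18 counts of Y-linked transcripts, whereas all 12 other samples had 7761 to 11638 Y-linked counts and at most 391 of Xist. A difference from WT therefore cannot be told apart from this sex-linked difference, and the labels give no sex. GCERAd also differs from WT by the Cre transgene, the floxed allele and the tamoxifen, and the part of these cannot be told apart either. Atf4 was 84.5 ± 9.81 CPM (counts scaled to a common library total, SD, n = 5) in WT and 65.4 ± 9.30 (n = 5) in GCERAd, lower by the test (log2 fold change -0.38, SE 0.11, edgeR adjusted p = 0.0218). It was 83.6 ± 8.93 CPM (n = 3) in TRACK and 92.4 ± 10.0 (n = 4) in the samples labelled TRACK-ATF4 KO, which went against that label (log2 fold change 0.17, SE 0.11, edgeR adjusted p = 0.367), so the directions below are those of the labels. GCERAd 4 and 5 stood apart from GCERAd 1 to 3. Their median absolute log2 difference from those samples was 0.199 to 0.229 over genes, against 0.109 to 0.144 among GCERAd 1 to 3 and 0.0963 between GCERAd 4 and 5. The share of counts on processed pseudogenes divided the libraries into kind A (0.032% to 0.038%: WT 1, 3, 4 and 5, GCERAd 1 and 2, GCERAdT 1 and 2) and kind B (0.0574% to 0.0784%: the rest, all TRACK samples included). WT 1 and 2, GCERAd 2 and 3, and GCERAdT 2 and 3 were the pairs of 1 library of each kind that were each other's closest match in immunoglobulin gene profile (r = 0.883 to 0.914 over 189 genes). WT 4 and 5, both of kind A, were closer still (r = 0.924), so such likeness alone does not settle whether a pair came from 1 mouse. The labels number the samples within each group. The extraction protocol speaks of 3 to 4 mice per cohort, and in the study's list of sequenced libraries some names recur with a letter added. Some libraries may thus be repeats of 1 mouse, but that list does not link its names to the samples. The pairs were counted separately, so n counts libraries here, and p-values are too small if a pair came from 1 mouse.

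Slco1a6 led the family in WT cortex, and it shared the lead with Slco1a1 in GCERAd. Per length, Slco1a6 was at 86.1 ± 7.93 FPKM (CPM per kilobase of exon, SD, n = 5) in WT, ahead of Slco3a1 at 8.21 ± 1.76, Slco4a1 at 3.96 ± 0.989, Slco2a1 at 3.95 ± 0.624, Slco2b1 at 2.87 ± 0.443 and Slco4c1 at 2.82 ± 0.314, with Slco1a1 and Slco1a4 last. Of these neighbours, Slco4a1 and Slco2a1, and Slco2b1 and Slco4c1, lay within each other's spread. Of the family's summed FPKM over all Slco genes, Slco1a6 made up 79.6% ± 1.89 (n = 5) in WT, 36.5% ± 4.43 (n = 5) in GCERAd, 26.5% ± 8.66 (n = 3) in TRACK and 35.7% ± 4.57 (n = 4) in GCERAdT. The share of Slco1a1 was 36.1% ± 2.34 in GCERAd, 29.6% ± 14.2 in TRACK and 27.6% ± 6.51 in GCERAdT. The summed level was 108 ± 10.2 FPKM in WT, 172 ± 17.1 in GCERAd, 109.8 ± 21.6 in TRACK and 98.3 ± 15.3 in GCERAdT. GCERAd samples (152 to 188 FPKM) thus lay above every sample of the other groups, which spanned 85.0 to 125 FPKM.

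**Figure D1:**
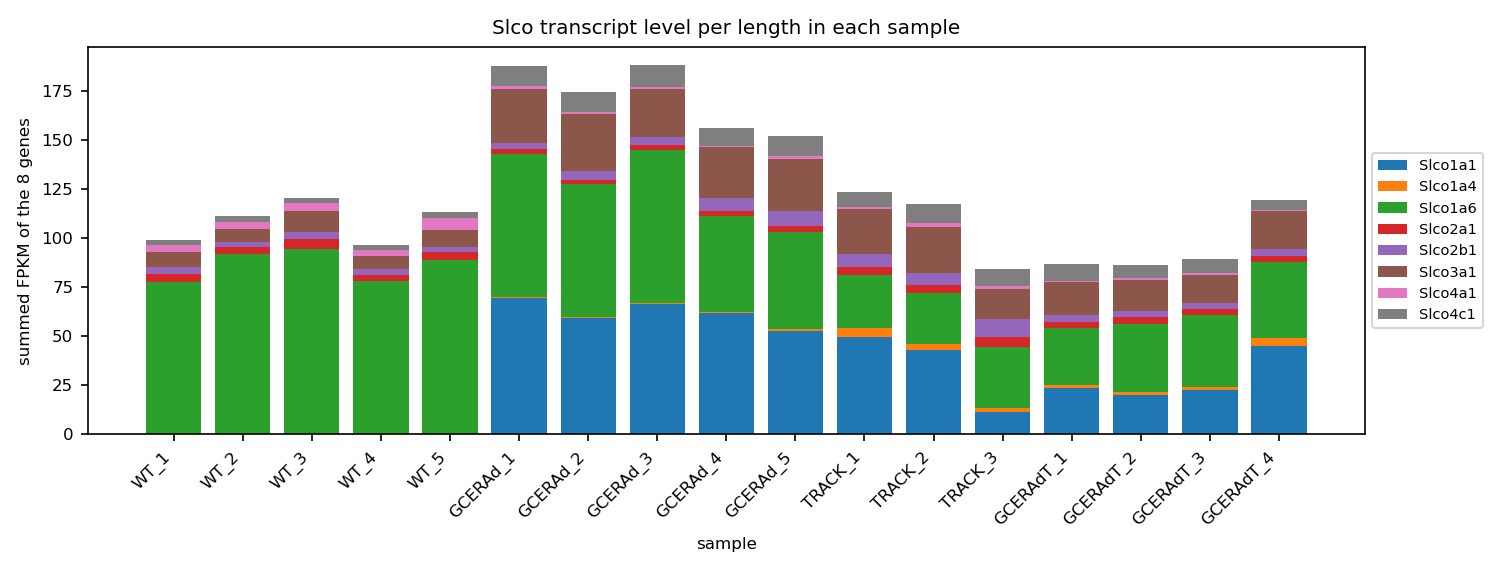
Stacked bars give the FPKM of the 8 Slco genes in each of the 17 samples (y axis, summed FPKM, linear and from 0), 1 colour per gene. Slco1a6 fills most of each WT bar, Slco1a1 appears in every sample outside WT, and the GCERAd bars are the highest.

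Calls below are from edgeR's quasi-likelihood test, with p-values adjusted after Benjamini and Hochberg over the whole set of genes tested and a threshold of 0.05. In GCERAd against WT all 8 members were called, 5 higher and 3 lower, where 27.6% of 11581 genes tested were called (14.1% higher, 13.5% lower). Slco1a4 was below the minimum level there and its value is from the fit of every detected gene, 11.7% of which were called (5.65% higher, 6.03% lower). In TRACK against WT 7 members were called, 5 higher and 2 lower, against 45.6% of 11967 genes (23.0% higher, 22.6% lower). In GCERAdT against TRACK 2 members were called, Slco2a1 and Slco2b1, both lower, against 7.09% of 11928 genes (2.81% higher, 4.28% lower). Without GCERAdT 2 the count was 1, and no member was called higher. For that count of 0, Slco1a6 was higher at an unadjusted p of 0.0176 and DESeq2 called it, with an adjusted p of 0.0467. In GCERAdT against GCERAd 7 members were called, 2 higher and 5 lower, against 19.2% of 11816 genes (9.39% higher, 9.79% lower). With the replicate number as a block the count was also 7, while the calls over all genes went from 2266 to 3731. Each of these 4 comparisons has a group in common with others of them, so they are not independent. The median log2 fold change of the 8 members was 1.19 in GCERAd against WT, 1.34 in TRACK against WT, -0.40 in GCERAdT against TRACK and -0.62 in GCERAdT against GCERAd, where the median of all genes tested was between -0.01 and 0.01 in each.

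The study's design also implies a test of whether the ATF4 KO label went with another change in the TRACK background than outside it. For this difference of differences (GCERAdT over TRACK, minus GCERAd over WT, all 17 samples) 6 members were called, 5 with a negative and 1 with a positive value, where 25.1% of 12208 genes were called (12.3% positive, 12.8% negative). The median value was -1.99 for the members and 0.02 for all genes tested. WT alone has the other sex-linked pattern, and its part in these differences cannot be told apart.

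The counts of members in subsets of the libraries are given with the calls over all genes tested in the same fit. Within libraries of kind A, 5 members were called in GCERAd against WT (3183 of 11605 genes) and 7 in GCERAdT against GCERAd (3237 of 11893 genes). Within kind B the counts were 3 in GCERAd against WT (1 WT library, 98 of 11641 genes) and 6 in TRACK against WT (1 WT library, 1475 of 11969 genes). In GCERAdT against TRACK 1 member was called within kind B (221 of 11885 genes). In GCERAdT against GCERAd it was 0 (349 of 11803 genes), and 7 had an unadjusted p below 0.05 in edgeR, which alone was run there. All members had the same direction within each kind as over all libraries in these 4 comparisons. Without GCERAd 4 and 5, 6 members were called against WT (3592 of 11636 genes) and 7 in GCERAdT against GCERAd (3366 of 11895 genes). Without GCERAd 1 to 3 the counts were 8 against WT (3982 of 11623 genes) and 4 in GCERAdT against GCERAd (1911 of 11807 genes). With the possible repeat pairs summed, 7 members were called in GCERAd against WT (Slco1a4 lost, 2760 of 11586 genes) and 5 in GCERAdT against GCERAd (Slco2b1 and Slco4c1 lost, 1168 of 11813 genes). They were 2 in GCERAdT against TRACK (498 of 11932 genes) and 7 in TRACK against WT (5641 of 11973 genes).

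**Figure D2:**
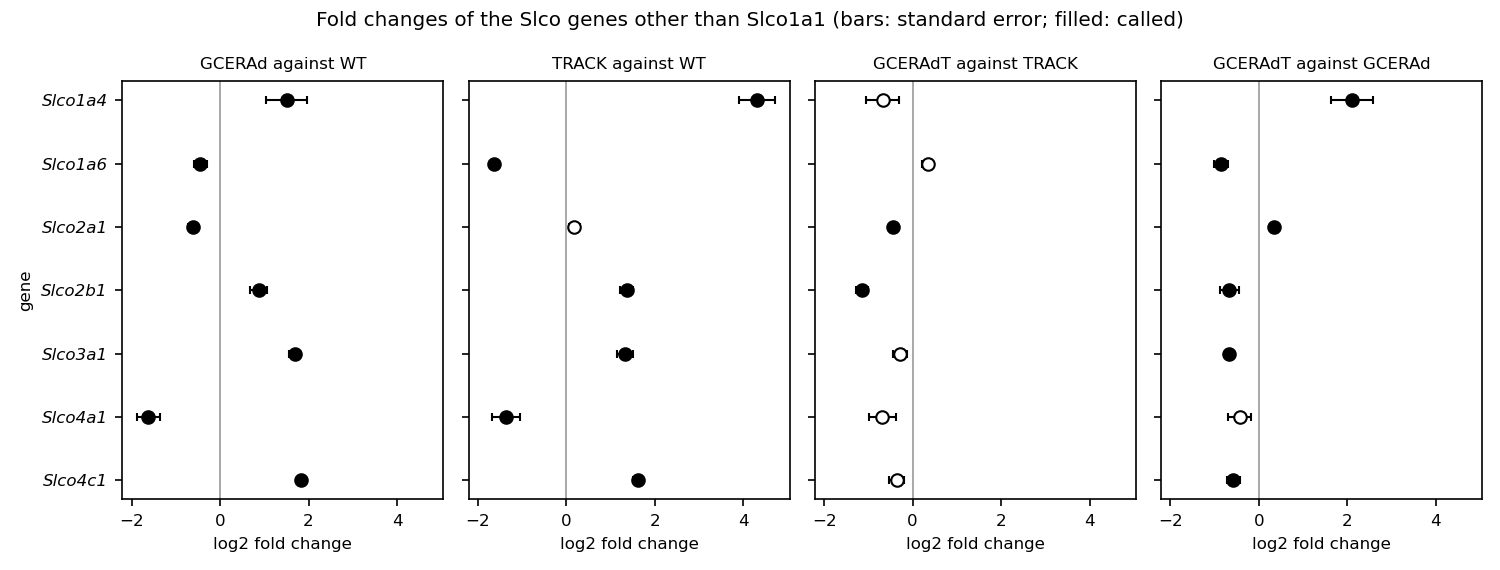
Fitted log2 fold changes (x axis) of 7 members (y axis) in 4 comparisons, with the standard error as bars. Filled points were called at an adjusted p of at most 0.05. Slco1a1, with log2 fold changes of 13.83 and 12.99 against WT, is left out for scale. In GCERAdT against TRACK only Slco2a1 and Slco2b1 are filled.

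Slco1a1 encodes a carrier of bile acids and steroid conjugates in the brush border of the proximal tubule, and it is known as a male-predominant, androgen-dependent gene of the mouse kidney. The WT samples 1 to 5 held 0, 0, 0, 0 and 6 counts, or 0, 0, 0, 0 and 0.0990 CPM. The GCERAd samples held 368, 313, 350.4, 327 and 277 CPM, the TRACK samples 262, 226 and 59.8 and the GCERAdT samples 125, 106, 119 and 237. The gene was thus near the floor in all WT samples and far above it in every other sample, and the Y-linked transcripts divided the samples in the same way. Pooled over the 5 WT libraries, the GCERAd mean was 16166 times the WT level, with a 95% counting interval (exact Poisson for the 6 WT counts) of 7427 to 44052. All 6 counts were in WT 5, so this interval leaves out the spread between WT libraries and is too narrow for the WT level. The fitted change in GCERAd against WT (log2 fold change 13.83, SE 0.41, edgeR adjusted p = 3.83e-09) and that in TRACK against WT (log2 fold change 12.99, SE 0.72, edgeR adjusted p = 1.25e-06) rest on WT 5, since they became 17.23 and 16.37 without it, values that depend on the prior count of the fit and are no bound. Beside them, 10 of the 10 autosomal genes listed as higher in male mouse kidney were called higher in both comparisons with WT, with summed levels of 5783 to 9856 CPM in WT and 27005 to 42731 CPM in GCERAd. That list was chosen with earlier results of these data known, so its count is a description and no independent support.

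Among the samples with Y-linked counts, Slco1a1 was lower in GCERAdT than in GCERAd (log2 fold change -1.15, SE 0.22, edgeR adjusted p = 0.00512), and these groups did not overlap. Between GCERAdT and TRACK it did not pass the test (log2 fold change -0.29, SE 0.44, edgeR adjusted p = 0.709). TRACK 3 held far less than TRACK 1 and 2, and without it the log2 fold change was -0.71 (adjusted p = 0.171, edgeR). TRACK 3 also had the lowest summed level of the male-higher genes outside WT (19141 CPM). GCERAdT 4 was the highest of its group, with 237 CPM.

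Slco1a4 encodes a carrier of bile salts and cardiac glycosides best known from liver and the blood-brain barrier. It was low in WT, at 0.879, 1.26, 1.31, 1.77 and 0.280 CPM, and in GCERAd, at 2.10, 1.41, 2.18, 2.81 and 7.30 CPM. The TRACK samples held 29.5, 21.3 and 14.6 CPM and the GCERAdT samples 10.8, 8.36, 9.20 and 25.5 CPM. Every sample with the TRACK label was above every sample without it. The gene was higher in TRACK than in WT (log2 fold change 4.31, SE 0.40, edgeR adjusted p = 3e-05) and in GCERAdT than in GCERAd (log2 fold change 2.11, SE 0.48, edgeR adjusted p = 0.0125), a comparison in which all samples had Y-linked counts. Its change in GCERAd against WT (log2 fold change 1.50, SE 0.46, edgeR adjusted p = 0.0432, overlapping ranges) was lost without WT 1, 2, 3 or 5 (adjusted p up to 0.103, edgeR) and without GCERAd 5, which took the log2 fold change to 0.94 (adjusted p = 0.165, edgeR). With library kind as a term of the model, edgeR gave an adjusted p of 0.118, and with the possible repeat pairs summed 0.0561. Its difference of differences (log2 fold change -2.18, SE 0.70, edgeR adjusted p = 0.0311) lost the call in 7 of 17 fits that left out 1 sample and with the pairs summed (adjusted p = 0.0617, edgeR). Without GCERAd 1 to 3, GCERAdT against GCERAd had a log2 fold change of 1.45 and missed the threshold (adjusted p = 0.0855, edgeR). GCERAdT against TRACK did not pass (log2 fold change -0.68, SE 0.37, edgeR adjusted p = 0.293), but without GCERAdT 4 it did, at -1.17 (adjusted p = 0.0188, edgeR).

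Slco1a6 encodes the kidney-predominant member of the Slco1a cluster and moved the opposite way. The WT samples held 295, 349.6, 359, 296 and 339 CPM and the GCERAd samples 277, 258, 298, 186 and 188. The TRACK samples held 102, 97.6 and 118 CPM and the GCERAdT samples 109, 133, 139 and 148. All 7 samples with the TRACK label lay below all 10 others. It was lower in TRACK than in WT (log2 fold change -1.63, SE 0.10, edgeR adjusted p = 2.52e-06) and in GCERAdT than in GCERAd (log2 fold change -0.85, SE 0.17, edgeR adjusted p = 0.00571). In GCERAd against WT it was called lower (log2 fold change -0.45, SE 0.14, edgeR adjusted p = 0.0357), but GCERAd 3 was within the WT range, GCERAd 4 and 5 were lowest, and the call was lost without WT 1, 2, 3 or 5 or GCERAd 4 or 5, with adjusted p-values from edgeR of up to 0.0763. With GCERAd 4 and 5 both left out the log2 fold change was -0.23 (adjusted p = 0.0683, edgeR). Its difference of differences was positive (log2 fold change 0.79, SE 0.21, edgeR adjusted p = 0.0104). Early proximal tubule markers moved beside it in the samples with the TRACK label. Their summed level was 4819 to 5327 CPM in TRACK and 5229 to 6325 in GCERAdT, against 7682 to 9223 in WT and 7649 to 10769 in GCERAd, with 5 of 8 called lower and 1 higher in TRACK against WT, 2 of 8 called lower in GCERAdT against GCERAd and all 8 detected in every group. Their part in the result was not tested, and in bulk tissue fewer cells of a type and less RNA per cell cannot be told apart.

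Gm6614, a coding gene between Slco1a1 and Slco1a6 (chr6:141971845-142011414, - strand) whose coding sequence is 85.3% identical to that of Slco1a1, was the only gene of the fixed list of 10 other Slco genes to reach the level minimum in any comparison, and it is named here after its values were seen. It was at 0.402, 0.408, 0.0538, 0 and 0.858 CPM in WT, 0.280, 0.413, 0.555, 0.262 and 0.758 in GCERAd, 4.25, 3.70 and 1.92 in TRACK and 10.7, 6.14, 6.34 and 4.13 in GCERAdT. Its levels with the TRACK label lay above all others, as those of Slco1a4 did, with a call in TRACK against WT (log2 fold change 3.23, SE 0.85, edgeR adjusted p = 0.0112) and in GCERAdT against GCERAd (log2 fold change 3.92, SE 0.38, edgeR adjusted p = 7.45e-05). Its mean was 1.34 FPKM in TRACK and 2.78 in GCERAdT, against 0.141 in WT and 0.185 in GCERAd. It thus reached the minimum only through the groups with the TRACK label, and its calls describe a gene picked by those same levels. Of that list 8 genes were in the table, and Slco6b1, Slco6c1 and Slco6d1 had no count in any sample.

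**Figure D3:**
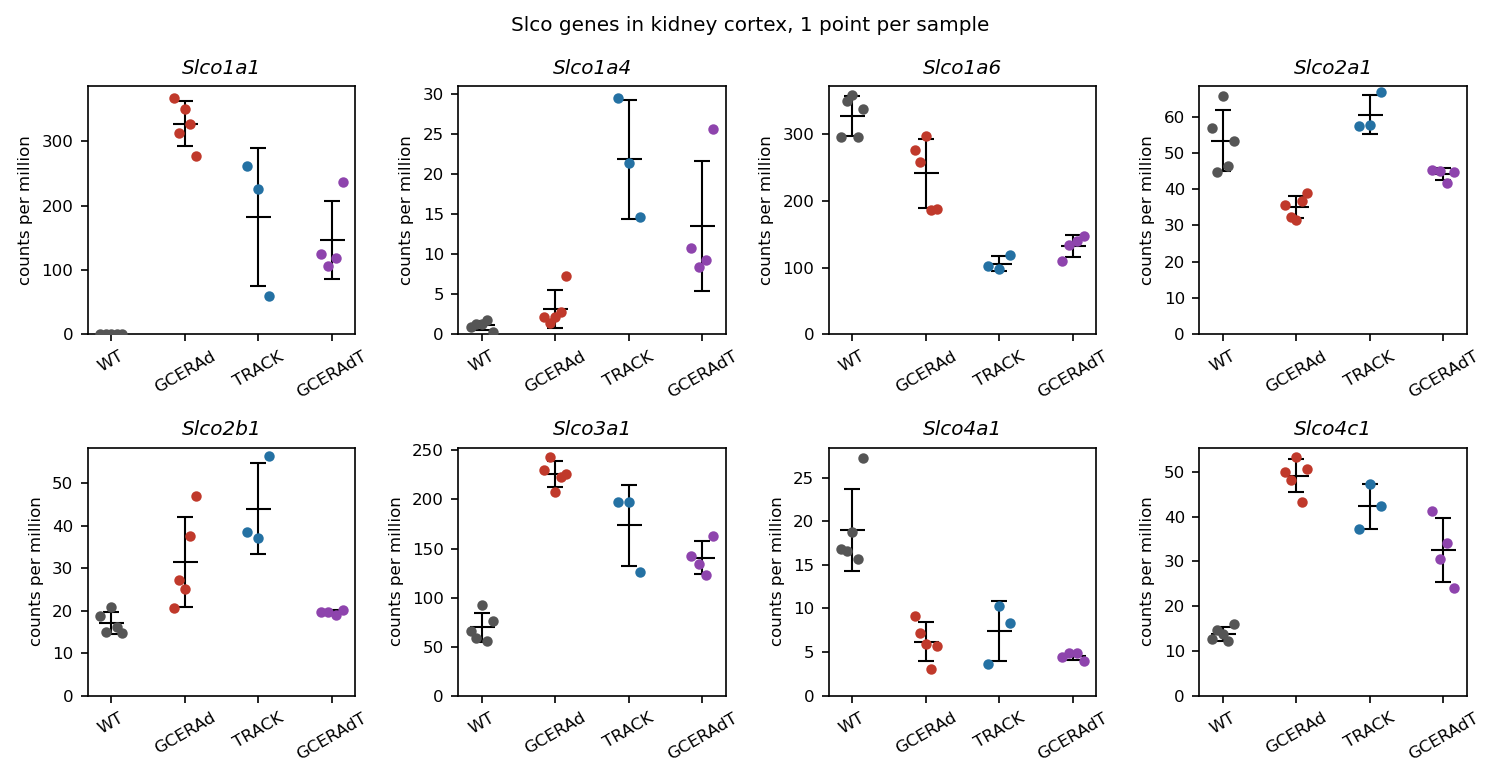
CPM of each Slco gene (y axes, linear and from 0, scaled per gene) in the 4 groups, 1 point per sample, with the mean and SD in black. Slco1a1 is at the axis in WT, Slco1a4 and Slco1a6 part the samples with the TRACK label from the rest in opposite directions, and Slco2b1 in GCERAdT lies within 18.9 to 20.1 CPM.

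Slco2a1 encodes the prostaglandin transporter, which takes prostaglandins into cells for breakdown. In WT it was at 57.1, 44.9, 65.7, 46.3 and 53.4 CPM, and in GCERAd at 35.7, 32.2, 31.6, 36.7 and 39.0 CPM. In TRACK the values were 57.5, 57.7 and 66.8 CPM, and in GCERAdT 45.3, 44.9, 41.6 and 44.7 CPM. Both groups labelled as ATF4 KO lay below their controls without overlap, and how many of all genes part in this way was not counted. The change in GCERAd is against WT and cannot be told apart from the sex-linked difference. In GCERAdT, Atf4 itself was not lower than in TRACK. Slco2a1 was lower in GCERAd than in WT (log2 fold change -0.62, SE 0.10, edgeR adjusted p = 0.00104) and in GCERAdT than in TRACK (log2 fold change -0.44, SE 0.08, edgeR adjusted p = 0.016), and the difference between these changes did not pass (log2 fold change 0.19, SE 0.14, edgeR adjusted p = 0.362). TRACK and WT overlapped (log2 fold change 0.18, SE 0.12, edgeR adjusted p = 0.248), and GCERAdT was above GCERAd (log2 fold change 0.35, SE 0.07, edgeR adjusted p = 0.00829), but without GCERAd 1 to 3 the adjusted p was 0.0674 (edgeR). The call in GCERAdT against TRACK was marginal, since without GCERAdT 2 the adjusted p was 0.0503 and within kind B it was 0.0785 (edgeR). The summed level of the 8 endothelial markers was 550.1 to 623 CPM in WT, 481 to 692 in GCERAd, 941 to 1086 in TRACK and 681 to 804 in GCERAdT, with 3 of 8 called lower in GCERAdT against TRACK, 1 of 8 called higher in GCERAd against WT and 5 of 8 called higher in GCERAdT against GCERAd. In TRACK against WT, where Slco2a1 was not called, 8 of 8 were called higher. Their part in the result was not tested.

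The promoter windows were taken from RefSeq (GRCm38.p6, 300 bases each, most of them before the start) for 7 members, and Slco3a1 had no entry. They were searched on both strands for TGATGNAA, the composite site of ATF4 with C/EBP proteins, which 3.97% of the 32851 promoter windows hold. Of the members' windows only that of Slco2a1 held it, as TTTCATCA at position -48 from the start on the opposite strand. The window lies at chr9:103008237-103008536 (+ strand), inside the annotated span of the gene, and is shown, with the match in capitals, because the gene was lower under both ATF4 KO labels. It was chosen after the values were seen, and the match is a description of letters, not a bound site.
Slco2a1: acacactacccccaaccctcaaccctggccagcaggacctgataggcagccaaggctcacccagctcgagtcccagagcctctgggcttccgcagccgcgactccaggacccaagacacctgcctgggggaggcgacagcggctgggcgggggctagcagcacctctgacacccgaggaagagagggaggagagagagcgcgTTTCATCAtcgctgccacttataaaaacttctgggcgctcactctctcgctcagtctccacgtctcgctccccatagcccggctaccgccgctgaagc

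Slco2b1 encodes a broadly expressed carrier of steroid sulfates, bile acids and many drugs, and it was the only member called in all 5 comparisons. The WT samples held 18.7, 14.9, 20.9, 16.0 and 14.8 CPM and the GCERAd samples 20.6, 27.2, 25.2, 37.5 and 47.0. The TRACK samples held 38.4, 37.2 and 56.3 CPM and the GCERAdT samples 19.7, 19.8, 18.9 and 20.1. GCERAdT, the group labelled TRACK-ATF4 KO, was the tightest of all and lay below both TRACK and GCERAd without overlap and within the range of WT. The gene was higher in TRACK than in WT (log2 fold change 1.36, SE 0.15, edgeR adjusted p = 0.000101) and lower in GCERAdT than in TRACK (log2 fold change -1.15, SE 0.14, edgeR adjusted p = 0.00204), where it had the largest change of the 8 members in size. Leaving out any 1 of the 7 samples gave log2 fold changes between -1.26 and -0.92, and within kind B it was -1.16 (adjusted p = 0.0374, edgeR). In GCERAd against WT it was higher (log2 fold change 0.87, SE 0.20, edgeR adjusted p = 0.00668), with GCERAd 1 inside the WT range and GCERAd 4 and 5 highest. The log2 fold change was 0.52 (adjusted p = 0.0114) without those 2 samples and 0.44 (adjusted p = 0.0598) within kind A, both in edgeR. The change in GCERAdT against GCERAd (log2 fold change -0.66, SE 0.20, edgeR adjusted p = 0.0447) lost its call in 8 of the 9 fits that left out 1 sample, all but the one without GCERAd 1, and was -0.29 without GCERAd 4 and 5. With the possible repeat pairs summed it was -0.71 and missed the threshold (adjusted p = 0.112, edgeR). The ATF4 KO label thus went with a higher level outside the TRACK background and a lower level within it, and the difference passed the test (log2 fold change -2.01, SE 0.28, edgeR adjusted p = 9.25e-05). The change outside that background is against WT and cannot be told apart from the sex-linked difference. Within it, Atf4 itself was not lower in the samples labelled as ATF4 KO. Of the 8 endothelial markers, 3 were called lower in GCERAdT against TRACK, where the summed levels did not overlap, and of the 5 fibroblast and pericyte genes Dcn, named after its values were seen, was (log2 fold change -1.08, SE 0.27, edgeR adjusted p = 0.0444). In GCERAdT against GCERAd, where Slco2b1 was also lower, 5 endothelial markers were called higher. Against WT, where Slco2b1 was higher in both groups, 8 of 8 were called higher in TRACK and 1 of 8 in GCERAd. Their part in the result was not tested.

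The promoter windows of Slco2b1 are shown because it was called in the most comparisons. It has 3 starts in RefSeq, at windows chr7:99711291-99711590, chr7:99706793-99707092 and chr7:99695760-99696059 on the - strand, and the counts do not tell which was used. Capitals mark the hexamer TGTTCT of glucocorticoid and androgen receptor sites, searched on both strands and present in 19.0% of all promoter windows, which occurred only in the window of the most downstream start. The same hexamer was found in a window of Slco4a1 (position 31, opposite strand) and in that of Slco4c1 (position -230), and the window of Slco1a1 did not hold it. The hexamer GTTAAT of HNF1 sites, present in 7.10% of all windows, occurred in no window of a member.
Slco2b1, upstream start: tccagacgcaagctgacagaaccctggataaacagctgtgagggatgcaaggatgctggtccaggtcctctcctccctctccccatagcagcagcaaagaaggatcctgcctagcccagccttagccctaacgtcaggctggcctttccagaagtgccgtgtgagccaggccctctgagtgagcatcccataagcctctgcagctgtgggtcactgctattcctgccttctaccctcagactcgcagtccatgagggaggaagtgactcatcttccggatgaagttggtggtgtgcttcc
Slco2b1, middle start: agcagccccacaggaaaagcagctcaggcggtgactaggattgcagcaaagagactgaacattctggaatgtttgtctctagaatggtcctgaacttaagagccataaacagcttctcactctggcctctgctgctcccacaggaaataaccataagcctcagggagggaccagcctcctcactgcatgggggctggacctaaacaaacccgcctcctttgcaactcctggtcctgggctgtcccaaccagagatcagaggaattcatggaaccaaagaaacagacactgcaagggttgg
Slco2b1, downstream start: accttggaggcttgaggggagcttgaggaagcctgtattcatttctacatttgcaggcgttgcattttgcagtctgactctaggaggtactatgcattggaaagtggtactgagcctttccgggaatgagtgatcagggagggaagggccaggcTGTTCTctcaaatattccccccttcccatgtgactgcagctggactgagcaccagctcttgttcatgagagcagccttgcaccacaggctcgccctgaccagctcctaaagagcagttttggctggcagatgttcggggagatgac

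Slco3a1 encodes a widely expressed carrier of prostaglandins and thyroxine. In WT it was at 65.5, 58.3, 92.3, 55.9 and 75.9 CPM, and in GCERAd at 230.4, 244, 207, 222 and 226 CPM. In TRACK the values were 198, 197 and 126 CPM, and in GCERAdT 142, 134, 123 and 163 CPM. All samples outside WT exceeded all WT samples, as for Slco1a1. The gene was higher in GCERAd than in WT (log2 fold change 1.69, SE 0.12, edgeR adjusted p = 3.06e-06) and in TRACK than in WT (log2 fold change 1.32, SE 0.18, edgeR adjusted p = 0.000338). Among samples with Y-linked counts it was lower in GCERAdT than in GCERAd (log2 fold change -0.67, SE 0.09, edgeR adjusted p = 0.000752), and GCERAdT against TRACK did not pass (log2 fold change -0.28, SE 0.16, edgeR adjusted p = 0.293) unless TRACK 3, the lowest of its group, was left out (-0.46, adjusted p = 0.0452, edgeR). Its difference of differences was negative (log2 fold change -1.97, SE 0.21, edgeR adjusted p = 6.74e-06).

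Slco4c1 encodes the organic anion carrier of the proximal tubule known for transporting cardiac glycosides and thyroid hormone. The WT samples held 12.7, 14.7, 13.7, 12.1 and 15.9 CPM and the GCERAd samples 50.0, 48.2, 53.4, 43.4 and 50.6. The TRACK samples held 37.3, 47.4 and 42.3 CPM and the GCERAdT samples 41.3, 30.5, 34.2 and 24.1. Its pattern was that of Slco3a1, with WT lowest and GCERAd highest. It was higher in GCERAd than in WT (log2 fold change 1.82, SE 0.09, edgeR adjusted p = 1.72e-07), with values of 1.78 to 1.88 when any 1 sample was left out, and in TRACK than in WT (log2 fold change 1.61, SE 0.11, edgeR adjusted p = 3.89e-06). GCERAdT was below GCERAd (log2 fold change -0.58, SE 0.14, edgeR adjusted p = 0.0163) without overlap, but the call was lost without GCERAdT 2 (adjusted p = 0.0557, edgeR), without GCERAd 1 to 3 (adjusted p = 0.109, edgeR) and with the possible repeat pairs summed (adjusted p = 0.0803, edgeR). GCERAdT against TRACK did not pass (log2 fold change -0.36, SE 0.17, edgeR adjusted p = 0.225). The difference of differences was negative (log2 fold change -2.17, SE 0.19, edgeR adjusted p = 7.75e-07).

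Slco4a1 encodes a carrier of thyroid hormones and prostaglandins and was the only member with its highest level in WT apart from Slco1a6. In WT it was at 16.8, 16.6, 18.8, 15.6 and 27.3 CPM, and in GCERAd at 9.14, 7.16, 5.93, 3.04 and 5.64 CPM. In TRACK the values were 3.59, 10.3 and 8.33 CPM, and in GCERAdT 4.41, 4.85, 4.89 and 3.96 CPM. Every WT sample exceeded every other sample. The gene was lower in GCERAd than in WT (log2 fold change -1.62, SE 0.26, edgeR adjusted p = 0.0008) and in TRACK than in WT (log2 fold change -1.36, SE 0.31, edgeR adjusted p = 0.00535), the latter not with library kind in the model (adjusted p = 0.0951, edgeR) nor within kind B (adjusted p = 0.183, edgeR). Neither GCERAdT against TRACK (log2 fold change -0.69, SE 0.31, edgeR adjusted p = 0.199) nor GCERAdT against GCERAd (log2 fold change -0.44, SE 0.26, edgeR adjusted p = 0.287) passed. The comparison with GCERAd was called without GCERAd 4, the lowest of its group (-0.60, adjusted p = 0.0461, edgeR), and without TRACK 1, the lowest TRACK sample, GCERAdT against TRACK was called (-1.02, adjusted p = 0.0229, edgeR). Collecting duct markers were also lower, with 4 of 6 called lower in GCERAd against WT and 5 of 6 in TRACK against WT. Their summed levels were 889 to 1065 CPM in WT, 388 to 643 in GCERAd and 509 to 557 in TRACK. In the same 2 comparisons, 4 of 5 and 3 of 5 thick ascending limb genes were called lower. For the distal convoluted tubule it was 2 of 3 and 3 of 3, so the decrease was not particular to the collecting duct. Their part in the result was not tested.

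The order of the group means was compared between neighbours by a two-sided exact permutation test on CPM, 24 pairs in all, with adjustment over them. WT was the lowest group for Slco1a1, Slco1a4, Slco2b1, Slco3a1 and Slco4c1 and the highest for Slco1a6 and Slco4a1. GCERAd was the highest for Slco1a1, Slco3a1 and Slco4c1, and the lowest for Slco2a1. In 8 of the 24 pairs the adjusted p was at most 0.05, each at 0.0476. These were WT below GCERAdT for Slco1a1, Slco3a1 and Slco4c1, WT below GCERAd and GCERAd below GCERAdT for Slco1a4, GCERAdT below GCERAd for Slco1a6 and Slco2b1, and GCERAd below GCERAdT for Slco2a1. A pair of TRACK and GCERAdT cannot go below an exact p of 0.0571, and a pair of TRACK with WT or GCERAd not below 0.0357, which came to an adjusted p of 0.0714 where it was reached (Slco1a1 and Slco3a1 against GCERAd, and Slco4a1 against WT). Neighbours whose ranges overlapped included TRACK and GCERAdT for Slco1a1, Slco1a4, Slco1a6, Slco3a1 and Slco4c1, and GCERAd, TRACK and GCERAdT for Slco4a1.

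Likeness of pattern was measured by Pearson's r and Spearman's rho of log2(CPM + 1) over the 17 samples among 12197 genes, as a description, since all genes share the same libraries and 4 groups. Since WT stands apart from the rest for several members, a high r can come from that split alone. The genes most like Slco1a1 were Cyp2j13 (0.995 and 0.94), Chst11 (0.992 and 0.90) and Slc7a13 (0.990 and 0.89), those most like Slco3a1 were Slc22a2 (0.98 and 0.94), Treh (0.98 and 0.91) and Fmo5 (0.98 and 0.98), and those most like Slco4c1 were Ugt8a (0.97 and 0.93), Agps (0.95 and 0.89) and Fmo5 (0.95 and 0.89). Slc7a13 is an acidic amino acid carrier of the proximal tubule, Slc22a2 the organic cation carrier OCT2, Treh trehalase, and Fmo5, a flavin monooxygenase, was on both of the latter lists. Slco1a4 was most like Gbe1 (0.96 and 0.95), Gnai1 (0.96 and 0.91) and Plekha2 (0.96 and 0.97), and Slco1a6 was most like Gcat (0.97 and 0.94), Slc5a11 (0.97 and 0.92) and Mtfp1 (0.96 and 0.95). For Slco2a1 the closest were Tinagl1 (0.92 and 0.93), P2ry2 (0.91 and 0.92) and Ncstn (0.91 and 0.94), for Slco2b1 Dkk3 (0.94 and 0.80), Il33 (0.93 and 0.83) and Pcbp3 (0.92 and 0.87) and for Slco4a1 Slc6a12 (0.95 and 0.89), Htr1b (0.95 and 0.90) and Smarcd3 (0.94 and 0.94). Gbe1 encodes the glycogen branching enzyme, Gcat an enzyme of threonine breakdown, P2ry2 a nucleotide receptor, Il33 a cytokine and Slc6a12 the betaine carrier. Among the members, r over the 12 samples outside WT was 0.92 (rho 0.89) for Slco1a1 and Slco3a1, 0.60 (rho 0.71) for Slco3a1 and Slco4c1, and -0.88 (rho -0.83) for Slco1a4 and Slco1a6 of the same cluster. These 12 samples still fall into 3 groups.

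**Figure D4:**
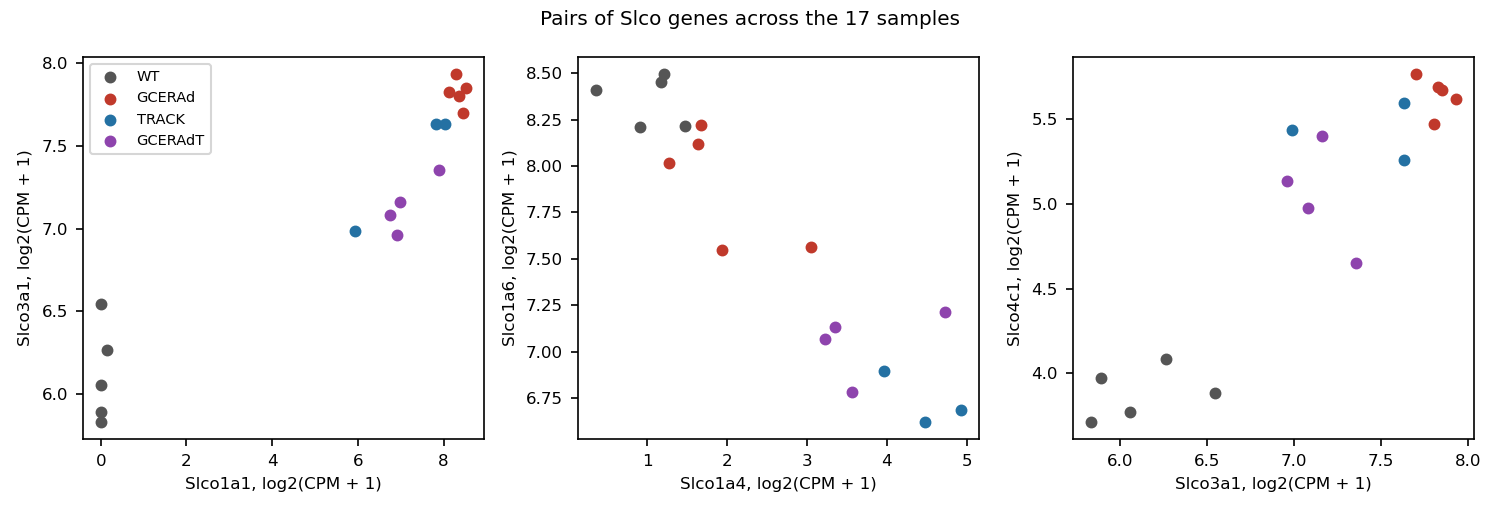
Levels of 3 pairs of Slco genes as log2(CPM + 1) on both axes, 1 point per sample, coloured by group. The WT samples lie apart in the panels of Slco1a1 with Slco3a1 and Slco3a1 with Slco4c1, and in that of Slco1a4 with Slco1a6 the samples with the TRACK label lie apart at high Slco1a4 and low Slco1a6.

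The other genes that handle the same anions were given by lists written from general knowledge, but with earlier results of these data known. The lists' counts and largest changes are among their genes past the minimum level. Of 18 organic anion uptake carriers and exporters, 6 were called higher and 6 lower in GCERAd against WT, with a median log2 fold change of -0.14. Slc17a3 (log2 fold change 1.77, SE 0.21, edgeR adjusted p = 0.000102) and Slc22a6, the basolateral para-aminohippurate carrier (log2 fold change 1.39, SE 0.15, edgeR adjusted p = 5.02e-05), rose most, and Abcc3 (log2 fold change -4.99, SE 0.33, edgeR adjusted p = 1.42e-06) and the drug exporter Abcb1b (log2 fold change -1.88, SE 0.28, edgeR adjusted p = 0.000508) fell most. Abcc3 is a basolateral exporter of conjugates. The list had 2 higher and 7 lower in TRACK against WT, 3 called in GCERAdT against TRACK, each higher, and 2 higher and 7 lower in GCERAdT against GCERAd.

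Of the prostaglandin genes, 14 of 18 reached the minimum in GCERAd against WT, with 3 called higher and 7 lower and a median log2 fold change of -0.30. The prostaglandin reductase Ptgr1 (log2 fold change 0.97, SE 0.17, edgeR adjusted p = 0.00178) and the prostacyclin synthase Ptgis (log2 fold change 0.67, SE 0.22, edgeR adjusted p = 0.0385) rose most among the genes past the minimum. Below it, the prostacyclin receptor gene Ptgir, named after its values were seen, rose more in the fit of every detected gene (log2 fold change 1.78, SE 0.41, edgeR adjusted p = 0.00811). Cbr1, a carbonyl reductase of prostaglandins (log2 fold change -2.94, SE 0.31, edgeR adjusted p = 4.69e-05), and the synthase Ptgds (log2 fold change -2.38, SE 0.18, edgeR adjusted p = 4.88e-06) fell most. The list's summed level was 915 to 1089 CPM in WT and 557 to 608, 531 to 562 and 512 to 555 CPM in GCERAd, TRACK and GCERAdT. In TRACK against WT 1 was called higher and 8 lower, and in GCERAdT against TRACK 1 of 13 was called, as lower.

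Of the thyroid hormone genes, 2 of 9 tested were called higher and 4 lower in GCERAd against WT, with a median log2 fold change of 0.01. The receptor Thrb (log2 fold change 0.40, SE 0.10, edgeR adjusted p = 0.0146) was among those that rose, and the deiodinase Dio1 (log2 fold change -1.36, SE 0.11, edgeR adjusted p = 6.75e-06) and the amino acid and thyroid hormone carrier Slc7a8 (log2 fold change -0.65, SE 0.13, edgeR adjusted p = 0.00366) fell most. Of the steroid and bile acid genes, 4 of 14 were called higher and 3 lower, with a median of 0.11. The oestrogen receptor Esr1 (log2 fold change 1.50, SE 0.14, edgeR adjusted p = 1.6e-05) and Slc51a (log2 fold change 1.28, SE 0.22, edgeR adjusted p = 0.00127) rose most, and the prolactin receptor Prlr (log2 fold change -3.26, SE 0.17, edgeR adjusted p = 3.03e-07) and Slc51b (log2 fold change -0.66, SE 0.14, edgeR adjusted p = 0.00439) fell most among the genes past the minimum. Below it, the nuclear receptor gene Nr1i3, named after its values were seen, fell more than Slc51b in the fit of every detected gene (log2 fold change -2.05, SE 0.52, edgeR adjusted p = 0.0145). Slc51a and Slc51b encode the subunits of 1 basolateral exporter of steroids and bile acids and were called in opposite directions. In GCERAdT against TRACK the thyroid list had 1 called higher and 2 lower, and the steroid list 3 called, each lower.

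Markers of proximal tubule were detected at high levels in all samples, as in the values given beside Slco1a6. Of the 8 markers of its late segment, 4 were called higher and 1 lower in GCERAd against WT, with summed levels of 2672 to 4382 CPM in WT and 4346 to 5849 in GCERAd. In that comparison 4 of 5 thick ascending limb genes and 2 of 3 distal convoluted tubule genes were called lower, and 4 of 5 fibroblast and pericyte genes higher. Podocyte genes summed to 291 to 401 CPM in WT and 289 to 399 in GCERAd, and immune genes to 88.5 to 104 and 55.7 to 105 CPM. Adipocyte genes summed to at most 6.24 CPM except in GCERAd 2 and 3 (24.4 and 22.5 CPM) and TRACK 1 (62.9 CPM). Skeletal muscle genes summed to 3.95 to 11.5 CPM in WT and to 0.792 to 1.46 in GCERAd, 0.685 to 1.48 in TRACK and 0.691 to 1.60 in GCERAdT. Of the 7 genes listed as higher in female kidney, a list also chosen with earlier results known, 5 were called lower and 1 higher in both comparisons with WT. The part of these cell types in the Slco levels was not tested.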

How the data were processed

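Total RNA of mouse kidney cortex was sequenced in 17 stranded mRNA libraries, in paired reads of 51 bases by the stated protocol. The study's list of libraries gives some of them a much lower yield for a similar number of clusters, so read length may have differed between libraries. Its part in the library kinds was not tested. The deposited table held read counts per gene, without normalization, made by the authors with bcl2fastq 2.20, Cutadapt, STAR and HTSeq on GRCm38. The annotation release, the strand setting and the treatment of reads with several matches are not given in the sources used here. Groups came from the sample labels. The members and lists were chosen with earlier results of these data known.

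Counts were scaled with TMM over all 17 samples to CPM, and with merged exon lengths of GENCODE M21 (48435 of 48795 identifiers) to FPKM. Each comparison was fitted on its own samples with edgeR 4.0.16 (R 4.3.3, limma 3.58.1), by the quasi-likelihood test with Benjamini-Hochberg adjustment over genes whose mean reached 1 FPKM in either group. Members below it came from a fit of every detected gene. The difference of differences used all 17 samples. The SE is the log2 fold change divided by the square root of the F statistic. Neighbouring groups were compared with exact permutation tests in SciPy 1.17.1. The fitting procedure was tested on simulated data. P-values measure the spread between these samples, which may in part be technical, since possible repeat libraries were counted separately.

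Named genes were the 8 members, Atf4 and sex-linked transcripts, of each list the called genes with the 2 largest increases and decreases in GCERAd against WT (given for the 4 lists of related function), and the 3 genes most like each member, with the promoters of the member called in the most comparisons. A gene that this rule names in the thyroid hormone list is not reported here. Replicate numbers were checked for pairing by the correlation of deviations from group means over 9137 genes. Between GCERAdT and GCERAd it was 0.41 to 0.58 for all 4 numbers, so the numbers pair those samples by the rule used (every pair over 0.1), although the numbers also follow library kind. In the other comparisons it was at most 0.04. The alternatives were DESeq2 1.42.0, RLE scaling, other minimums, all samples in 1 fit, a replicate block, library kind, summed repeat libraries and each sample left out. Library subsets (kind A, kind B, GCERAd 4 and 5 or 1 to 3 left out) and library kind as a covariate where TRACK takes part were added after seeing the data. A fit within 1 sex-linked pattern was not possible against WT, and the other comparisons hold 1 pattern. The covariate could be fitted with TRACK only because the other group held both kinds.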

Additional observations from a re-analysis of the deposited data

Results flagged for a closer look

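Of 24 sets of values (8 genes in WT, GCERAd and GCERAdT), 6 had a sample far from the rest by Dixon's criterion. Its rate of about 1 in 20 by chance holds for independent sets of normal values. These sets share libraries, so their count cannot be set against that rate. Slco1a1 in WT 5 was at 0.0990 CPM while WT 1 to 4 were at 0, so that any count in WT 5 would have been flagged. GCERAdT 4 was high for Slco1a1, at 237 CPM against 106 to 125 in the others, and for Slco1a4, at 25.5 CPM against 8.36 to 10.8. GCERAd 5 was high for Slco1a4, at 7.30 CPM against 1.41 to 2.81. Slco2a1 in GCERAdT 3 was low, at 41.6 CPM against 44.7 to 45.3. Slco4a1 in WT 5 was high, at 27.3 CPM against 15.6 to 18.8.

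The change that went with the ATF4 KO label differed between the TRACK background and the other mice for 6 members by the interaction test of edgeR. Of all 12208 genes tested, 25.1% were called in the same way. The difference of log2 fold changes was -14.12 for Slco1a1 (adjusted p = 2.16e-09), -2.18 for Slco1a4 (adjusted p = 0.0311), 0.79 for Slco1a6 (adjusted p = 0.0104), -2.01 for Slco2b1 (adjusted p = 9.25e-05), -1.97 for Slco3a1 (adjusted p = 6.74e-06) and -2.17 for Slco4c1 (adjusted p = 7.75e-07). The value of Slco1a1 rests on 6 WT counts, all in WT 5, and ranged from -17.55 to -13.77 with 1 sample left out. Of the 4 groups only WT had the other sex-linked pattern, and the part of that pattern in these differences cannot be told apart.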

How the results depend on the processing

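The number of members called stayed within 1.5 times its value for all 5 comparisons under DESeq2, RLE scaling, the other minimums, all 17 samples in 1 fit (4 comparisons), the replicate block, library kind as a covariate and summed repeat libraries, and the 8 neighbour pairs past the threshold were also 8 without TMM scaling. It moved with library subsets. GCERAd against WT had 5 members called within kind A and 3 within kind B, GCERAdT against TRACK 1 within kind B, and GCERAdT against GCERAd 0 within kind B (edgeR, with 7 at an unadjusted p below 0.05) and 4 without GCERAd 1 to 3. Leaving out 1 sample gave 6 to 8 calls in GCERAd against WT, 1 to 3 in GCERAdT against TRACK (1 without GCERAdT 2), 7 in TRACK against WT each time, 5 to 7 in GCERAdT against GCERAd and 5 to 6 for the difference. The sign turned for Slco1a1 in GCERAdT against TRACK without TRACK 1 (range -0.71 to 0.053 over the samples left out), for Slco4a1 in GCERAdT against GCERAd without GCERAd 1 to 3 (0.045) and for Slco2a1 in the difference within kind B (-0.14), none of them called in the main result. Of the members' single values, 786 were on the same side of the threshold with the same direction, 66 lost and 9 gained a call. The subsets hold fewer samples, and no other cause of these losses was tested. With the replicate block on shared numbers, which dropped GCERAd 5, GCERAdT against GCERAd also had 7 members called, while the calls over all genes went from 2266 of 11816 to 3731 of 11842. In the other comparisons the numbers are only shared, and the block gave 7 calls in GCERAd against WT (Slco1a4 lost), 2 in GCERAdT against TRACK (Slco1a4 gained, Slco2a1 lost at an adjusted p of 0.0575), 7 in TRACK against WT and 6 for the difference. Over all genes, GCERAdT against TRACK had 846 calls, 1562 with DESeq2, 462 with library kind as a covariate, 498 with repeats summed, 221 within kind B and 379 to 1424 with 1 sample left out. TRACK against WT had 5458, 2776 with the covariate, 3382 with the block, 3438 at a minimum of 5 FPKM (fewer genes tested) and 1475 within kind B. GCERAd against WT had 3198, 2106 with the block and 98 within kind B. GCERAdT against GCERAd had 2266, 1427 without GCERAdT 2, 1168 with repeats summed and 349 within kind B. The difference had 3070, 2041 at 5 FPKM and 452 within kind B. At these depths Slco1a1 in WT is set by 6 counts, all in WT 5. Its fold against WT is limited by the spread between WT libraries as well as by counting error.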
